A study of Mus musculus with 4 samples.

Results

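The genes described are those of the translation initiation factors in mouse blastocysts. They were chosen by name, as the gene symbols that begin with Eif followed by a number from 1 to 6 and are listed in both RNA-seq and Ribo-seq. Eif1a and the pseudogene symbols ending in -ps were left out. The rule found 53 genes among the 20714 symbols listed in both assays, and it used no measured value. They were grouped by factor into 4 genes for eIF1 and eIF1A, 4 for eIF2, 5 for eIF2B, 4 for the eIF2 kinases, 2 for eIF2A and eIF2D, 13 for eIF3, 3 for eIF4A, 2 for eIF4B and eIF4H, 4 for eIF4E, 4 for the eIF4E-binding proteins, 3 for eIF4G, 4 for eIF5, eIF5A and eIF5B, and 1 for eIF6.

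Translation initiation brings the ribosome, the initiator tRNA and the start codon of an mRNA together. eIF2 delivers the initiator tRNA as a complex with GTP, eIF1, eIF1A and eIF5 govern which codon is accepted as the start, and eIF3 holds the small ribosomal subunit and the mRNA-bound factors together. eIF4E binds the cap of the mRNA, eIF4G bridges it to eIF3, and the helicase eIF4A, helped by eIF4B or eIF4H, opens structure in the leader. Early embryos begin with a store of maternal mRNA and protein and then turn to mRNA of their own, so these factors are part of the machinery that the embryo has to renew.

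The study followed mRNA, translation and protein from the oocyte to the blastocyst, and the blastocyst RNA-seq and Ribo-seq are analysed here, with 2 libraries in each assay. Both groups were untreated WT embryos from 4-week-old C57BL/6J females mated with PWK/PhJ males. The strain tag of all 4 libraries reads C57BL/6N x PWK. The embryos were taken at the 8-cell stage and grown to blastocysts in KSOM, and their zona pellucida was removed with acid. RNA-seq used polyA RNA and the Smart-Seq2 method and gives the mRNA level. Ribo-seq used lysis with cycloheximide, RNase I digestion and a sucrose cushion and gives the ribosome protected fragments (RPF). Nothing in the labels says that the replicates came from separate parents or cultures, so the p-values measure the spread between these libraries, which may be technical.

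The values are FPKM (fragments scaled to feature length and library size), over transcripts for mRNA and over coding sequences for RPF. Most low RPF values fell on whole footprints with the shortened effective length that Cufflinks uses by default, but not with the plain coding length. With the former, 81.9% and 81.7% of the values in replicates 1 and 2 lay within 0.1 of a whole number, against 39.4% and 36.3% with the latter. For a fixed total of footprints, 20% is expected by chance. The totals were searched for a high share, and the chance level of that search was not computed. The steps implied 532945 and 483871 footprints in Ribo-seq replicates 1 and 2, and the RNA-seq depth was not estimated. A floor of 3 footprints is used below, which covers counting error only. All 5 trophectoderm markers were at 1 FPKM or more in all 4 libraries, as were 3 of 5 inner cell mass markers, whereas none of 6 oocyte markers and none of 4 cumulus or granulosa markers was. The summed level of the oocyte markers was at most 1.92 FPKM, and that of the cumulus or granulosa markers was 0.

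The start codon contexts of the factors are shown first, since these proteins choose start codons and some of their own mRNAs have unusual ones. The bases are from GENCODE vM1 transcripts on NCBIM37, the assembly of mm9. A single transcript was used for each gene, that with the longest complete coding sequence. For Eif4g2 it was the longest that ended in a stop codon. Other transcripts of a gene can start elsewhere and were not examined. They run from 9 bases before the start codon to 3 bases after it. Capitals mark the base 3 before the start codon, the start codon, and the base right after it. The first 3 are genes of start codon selection, the next 6 are those whose RPF differed from their mRNA in the test described further on, and the last begins at another codon than ATG.
Eif1: tcgtatCgtATGTcc
Eif1b: tagtgtCgcATGTcc
Eif5: taagccAaaATGTct
Eif1ax: tttgcgGccATGCcc
Eif4e: cgatctAagATGGcg
Eif4h: agacggCaaATGGcg
Eif4a1: ctaaggAtcATGTct
Eif3m: gccttcAccATGAgc
Eif4g3: cctcagAcaATGAac
Eif4g2: gccgccAaaGTGGag

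A purine 3 bases before the start codon and a G right after it are the 2 favoured features of a mammalian start context. Of 50 members with an annotated ATG start, 20 (40.0%) had both features, against 42.3% of the 16300 genes with such a start. A further 22 members (44.0%, against 42.9%) had the purine alone, 3 (6.0%, against 7.7%) had the G alone, and 5 (10.0%, against 7.1%) had neither. The 5 with neither were Eif1, Eif1b, Eif2b4, Eif3b and Eif4e1b. Eif1 and Eif1b shared this kind of context, while Eif5 had an A 3 bases before its start and lacked the G. Eif4g2, which encodes the eIF4G relative DAP5, was annotated with a GTG start and was not counted. Among the members tested below, the median log2 difference between RPF and mRNA was -0.34 for 17 genes with both features, -0.14 for 22 with the purine alone, 0.66 for 3 with the G alone, and 0.04 for 4 with neither. These medians are descriptions and carry no test.

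Most of the initiation factors were among the more highly expressed genes of the blastocyst (see the plot of levels by library). A total of 48 of the 53 members were above 0 in all 4 libraries, and 49 passed the filter of a mean of at least 1 FPKM in both assays. The median RPF level of all 53 members, tested or not, was 168 and 164 FPKM in replicates 1 and 2. Over the 8327 genes that passed the filter it was 25.3 and 23.8 FPKM. The median mRNA level of the 53 members was 43.1 and 47.8 FPKM, against 7.98 and 8.07 FPKM over those 8327 genes. The replicates of the members also lay closer together than those of all tested genes. The members stood at higher levels, and no comparison at matched levels was made. Among the 49 tested members, the median gap between replicates on the log2 scale was 0.31 for RPF and 0.15 for mRNA. It was 0.48 and 0.28 over all tested genes. Of the 51 members matched to a GENCODE coding sequence, 40 had at least 10 footprints in both Ribo-seq replicates and 21 had at least 100.

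**Figure D1:**
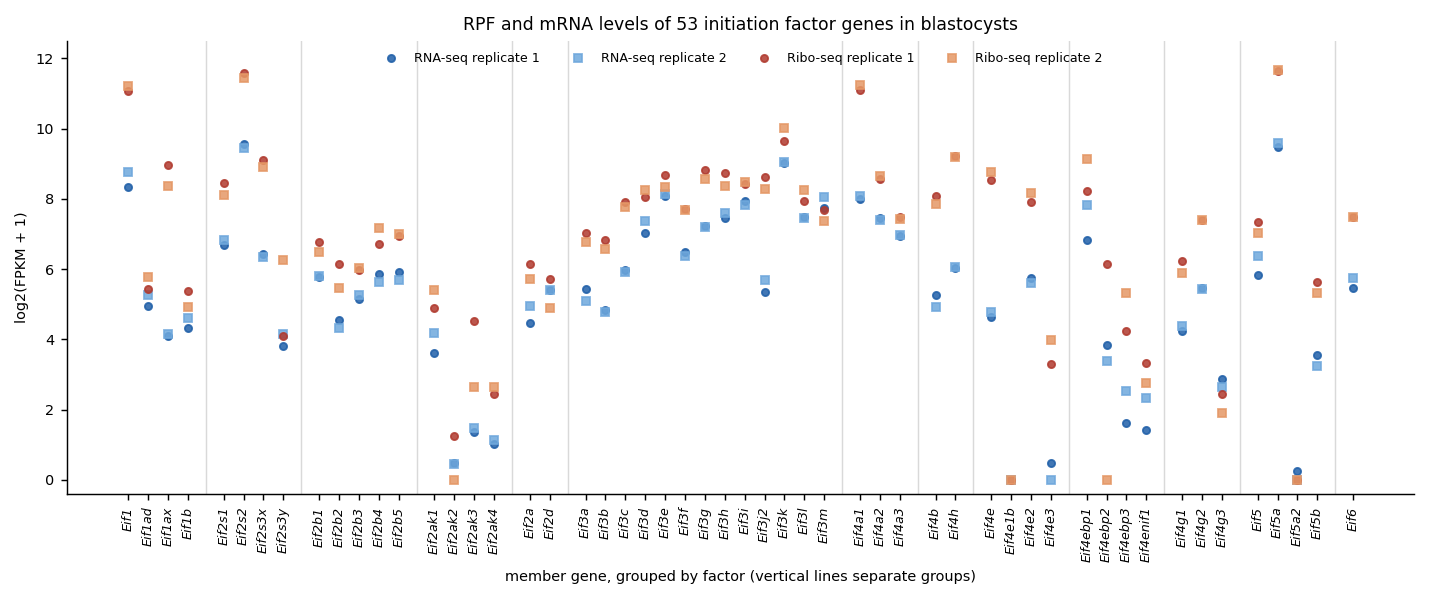
Levels of the 53 initiation factor genes as log2(FPKM + 1), with 1 point for each library (blue for RNA-seq, red and orange for Ribo-seq) and genes grouped by factor. Eif5a, Eif2s2, Eif4a1 and Eif1 stand highest in RPF, each with at least 2167 FPKM in both libraries, whereas Eif4e1b is at 0 in all 4 libraries.

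The 4 highest members by RPF were Eif5a, Eif2s2, Eif4a1 and Eif1. Eif5a, which encodes the hypusine-bearing factor eIF5A that helps the ribosome over difficult peptide bonds, had 3209 and 3269 FPKM of RPF over 713 and 766 FPKM of mRNA. Eif2s2, which encodes the beta subunit of eIF2, had an RPF level of 3039 and 2786 FPKM. Eif4a1 (2201 and 2439 FPKM) and Eif1 (2167 and 2381 FPKM) overlapped each other as deposited and lay below Eif2s2. The next member was Eif3k, at 806 and 1031 FPKM. In mRNA, Eif2s2 (756 and 702 FPKM) and Eif5a overlapped at the top and were followed by Eif3k (521 and 524 FPKM) and Eif1 (322 and 432 FPKM). The RPF FPKM of short coding sequences is raised by the effective length, by 2.31 times for the 342 bases of Eif1 and by 1.76 times for the 465 bases of Eif5a, against 1.25 times for Eif2s2 and 1.20 times for Eif4a1. The order above rests on that length. Per plain coding length, Eif2s2 (2428 and 2225 FPKM) came first in RPF, Eif4a1 (1839 and 2039 FPKM) and Eif5a (1827 and 1861 FPKM) overlapped behind it, and Eif1 (940 and 1033 FPKM) lay apart below them. Of the 28-base windows of the coding sequence, 99.7% for Eif1, 91.5% for Eif4a1, 66.7% for Eif2s2 and 42.9% for Eif5a occurred at more than 1 place in the genome. The share for Eif3k was 1.1%. The part of such windows in the order was not tested.

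For the comparison of RPF with mRNA, 4 members had RPF above mRNA, namely Eif1ax, Eif4e, Eif4h and Eif4a1, and 2 had RPF below mRNA, namely Eif3m and Eif4g3. The difference was tested with limma on log2(FPKM + 1) over all 8327 genes, with each library centred on its median and a gene was called where its Benjamini-Hochberg adjusted p was under 0.05 and its log2 difference was 1 or more in size. The 4 of 49 higher and 2 of 49 lower members stand beside 6.65% of all tested genes called higher (554 genes) and 5.31% called lower (442 genes), so the members were called about as often as the background. The median difference was -0.16 over the members and -0.24 over all tested genes, and 26 of the 49 members lay above the median of all genes. An unadjusted p under 0.05 was reached by 20 members and by 36.3% of all tested genes. RPF values were higher than mRNA values for most genes as deposited, with library medians 1.5 apart on the log2 scale, so every difference is relative to that shift. Without centring, 30 members were called higher and 0 lower, beside 4113 and 65 of all 8327 genes. With quantile normalization 4 members were called higher and 6 lower, beside 618 and 574 genes. With a pseudocount of 0.1 the calls of Eif4a1 (adjusted p = 0.0591), Eif4h (0.0537) and Eif4g3 (0.0537) ended. All 6 calls ended when either RNA-seq library was left out, with limma giving 0 members called in either direction and 7 members at an unadjusted p under 0.05 in each case. The same 2 fits called 0 of all 8327 genes, with 1293 and 1250 genes at an unadjusted p under 0.05, so the loss was not particular to the members. Leaving out Ribo-seq replicate 1 gave 10 members higher and 5 lower, beside 1268 and 1987 genes, and leaving out Ribo-seq replicate 2 gave 8 higher and 8 lower, beside 1210 and 1801 genes. The 6 members kept their direction in every setting in which they were tested.

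**Figure D2:**
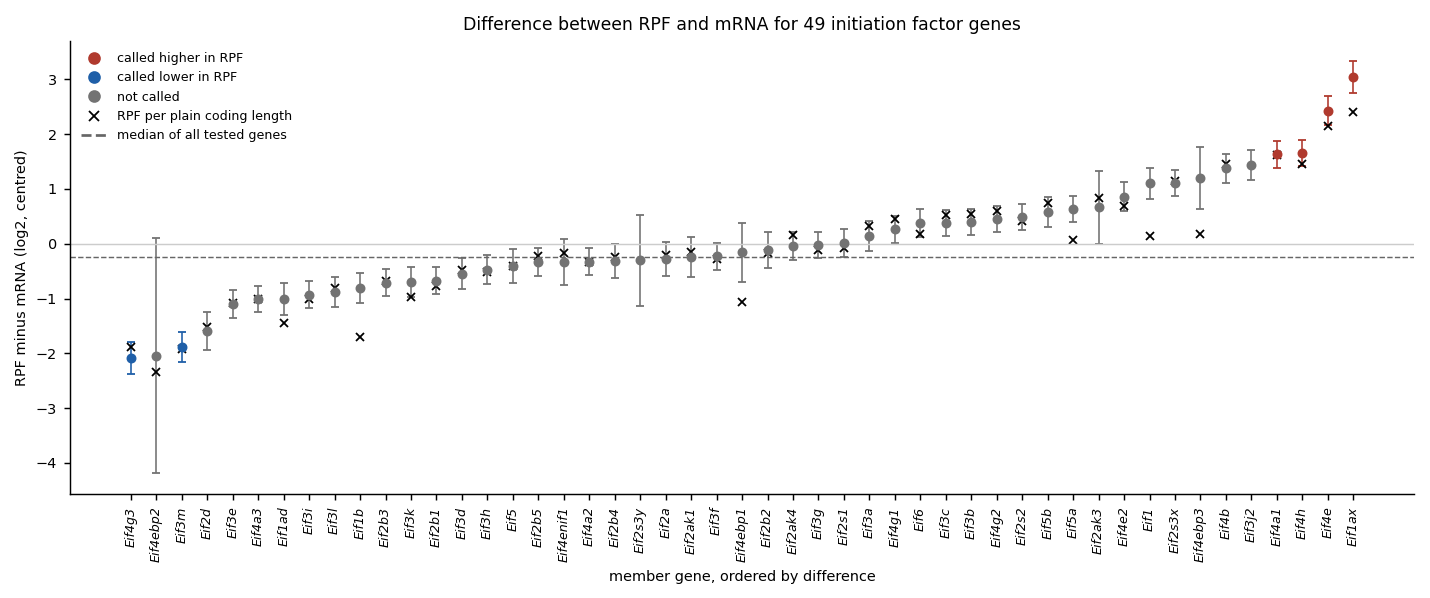
Centred log2 difference between RPF and mRNA for the 49 tested members, ordered by size, with bars of 1 SE from limma, crosses for the values with RPF per plain coding length, and a dashed line at the median of all tested genes (-0.24). Eif1ax (3.03) and Eif4e (2.43) stand apart at the upper end, and the long bar of Eif4ebp2 belongs to a gene at 0 in 1 of the 2 Ribo-seq libraries.

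Of the factors that select the start codon, Eif1ax differed most between the assays. Eif1ax (chrX:155810110-155827860, plus strand) encodes eIF1A, which keeps the scanning ribosome open until the start codon is found. Its mRNA level was 16.0 and 16.9 FPKM and its RPF level was 493 and 330 FPKM, from 61.8 and 37.5 footprints. Both RPF values were far above both mRNA values, and the centred log2 difference was 3.03 ± 0.29 (SE, limma adjusted p = 0.0231). It was 2.40 with RPF per plain coding length, and 5.1% of its 28-base windows occurred at more than 1 place in the genome. Eif1 (chr11:100181199-100183410, plus strand), whose product rejects poor start codons, had a difference of 1.10 ± 0.29 that missed the threshold (adjusted p = 0.0796) and was 0.15 per plain coding length. Of its windows, 99.7% occurred at more than 1 place. Eif1b (chr9:120401724-120404445, plus strand), a paralogue of Eif1 on another chromosome, had mRNA values of 18.8 and 23.3 FPKM with RPF values of 40.3 and 29.6 FPKM, from 3.18 and 2.12 footprints. Eif1 made up 94.5% and 94.9% of the summed mRNA of the pair and 98.2% and 98.8% of the summed RPF, and the pair shared 0 windows of 28 bases in their coding sequences. Eif1ad, named for a domain like that of eIF1A, reached 29.9 and 37.5 FPKM in RNA-seq against 42.3 and 53.3 FPKM in Ribo-seq, from 7.05 and 8.06 footprints. It was not called in the deposited values (-1.01, adjusted p = 0.0964), whereas Eif1b and Eif1ad were both called lower per plain coding length (-1.71 and -1.46).

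The 3 subunits of eIF2 stood at unequal levels in both assays. Eif2s1, which encodes the alpha subunit that the stress kinases phosphorylate, stood at 101 and 113 FPKM in mRNA and at 348 and 272 FPKM in RPF. Eif2s2 was 7.46 and 6.20 times Eif2s1 in mRNA and 8.74 and 10.2 times Eif2s1 in RPF. Eif2s3x, the X-linked gene of the gamma subunit that holds the initiator tRNA and GTP, had mRNA values of 84.6 and 80.9 FPKM with RPF values of 549 and 476 FPKM. It was 0.835 and 0.714 times Eif2s1 in mRNA and 1.58 and 1.75 times Eif2s1 in RPF, so that the order of the alpha and gamma subunits differed between the assays in both replicates. None of the 3 passed the test between assays, with differences of 0.01, 0.49 and 1.11, and the adjusted p of Eif2s3x was 0.0595. More than 50% of the 28-base windows of all 3 occurred at more than 1 place in the genome, from 56.9% for Eif2s1 to 79.7% for Eif2s3x. Eif2s3y, the Y-linked copy, reached 13.0 and 16.7 FPKM in RNA-seq against 16.1 and 75.6 FPKM in Ribo-seq, so the Ribo-seq replicates were far apart.

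The 5 genes of eIF2B, the factor that reloads eIF2 with GTP, lay close together and below Eif2s1, Eif2s2 and Eif2s3x, but not below Eif2s3y in mRNA. The mRNA levels of the 5 ranged from 19.0 FPKM for Eif2b2 to 59.96 FPKM for Eif2b5, and their RPF levels from 43.5 FPKM for Eif2b2 to 143 FPKM for Eif2b4. Eif2b5, the catalytic subunit gene, had 59.96 and 50.3 FPKM of mRNA and 122 and 127 FPKM of RPF, while Eif2b2 had 22.4 and 19.0 FPKM of mRNA and 70.1 and 43.5 FPKM of RPF. The highest was 2.68 and 2.91 times the lowest in mRNA and 1.98 and 3.28 times in RPF. The median of the 5 was 0.536 and 0.431 times Eif2s1 in mRNA and 0.298 and 0.328 times in RPF. Differences between assays ran from -0.71 to -0.12, and none was called.

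Of the 4 kinases that phosphorylate eIF2 alpha under stress, Eif2ak1 was the highest and lay above the median of all tested genes in both assays, whereas the other 3 lay below it in all 4 libraries. Eif2ak1, which encodes the haem-regulated kinase HRI, stood at 11.1 and 17.0 FPKM in mRNA and at 28.8 and 41.0 FPKM in RPF. Eif2ak3, which encodes the endoplasmic reticulum kinase PERK, had mRNA values of 1.58 and 1.76 FPKM with RPF values of 22.0 and 5.24 FPKM, from 36.8 and 7.98 footprints. Eif2ak4, which encodes the amino acid sensor GCN2, reached 1.03 and 1.20 FPKM in RNA-seq against 4.47 and 5.21 FPKM in Ribo-seq. Eif2ak2, which encodes the double-stranded RNA sensor PKR, had 0.40 and 0.38 FPKM of mRNA, 1 footprint (1.39 FPKM) in Ribo-seq replicate 1 against a floor of 4.18 FPKM and none in replicate 2, and was not tested. The RPF values of the other 3 in replicate 2 were therefore ordered Eif2ak1, Eif2ak3 and Eif2ak4, with the last 2 next to each other. Eif2a and Eif2d encode factors that can bring a tRNA to the ribosome without eIF2. Eif2d had an mRNA level of 41.3 FPKM in both replicates and an RPF level of 52.0 and 28.6 FPKM, and its difference of -1.59 ± 0.35 missed the threshold (limma adjusted p = 0.0609). Its coding sequence overlaps Rassf5 on the other strand, and Smart-Seq2 does not mark the strand. Eif2a had 21.1 and 29.8 FPKM of mRNA and 69.6 and 51.4 FPKM of RPF, with a difference of -0.28.

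The subunits of eIF3 differed less from each other in RPF than in mRNA. eIF3 is the largest initiation factor, and its 12 stably bound subunits (a to i and k to m) are present once in each complex. The highest subunit gene was 19.1 and 20.0 times the lowest in mRNA and 7.22 and 10.96 times the lowest in RPF. In both assays and all 4 libraries the lowest was Eif3b and the highest Eif3k. The SD of the log2 levels over the 12 genes was 1.19 and 1.28 in mRNA and 0.80 and 0.91 in RPF, so the libraries of the assays did not overlap. With 2 libraries against 2, a two-sided exact test cannot go below p = 0.333, and no p is given. Over all tested genes the SD was larger in RPF (2.42 and 2.54) than in mRNA (2.05 and 2.06). Within 2-fold of the median of the complex in both replicates were 7 of the 12 genes in mRNA and 9 of 12 in RPF. With RPF per plain coding length the SD was 0.69 and 0.80 and the range 5.39 and 8.18 times.

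**Figure D3:**
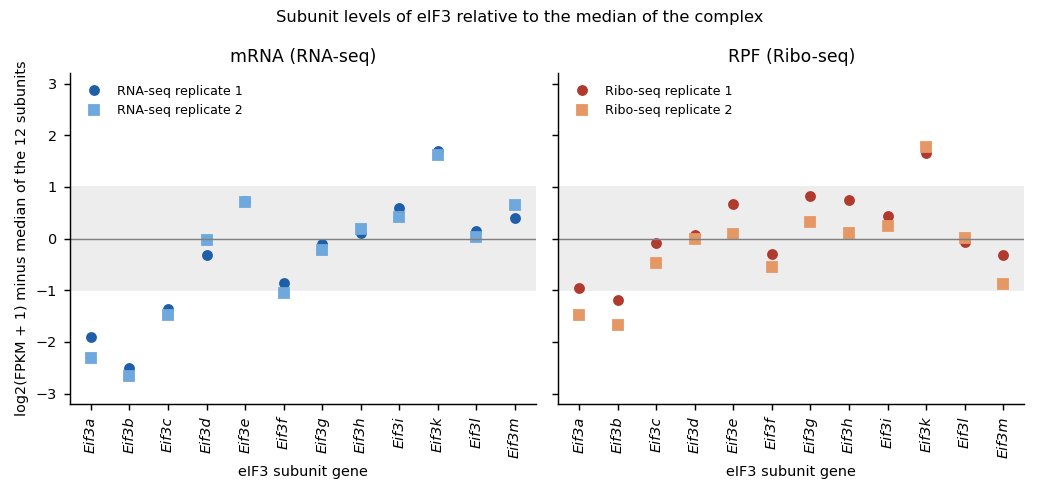
Levels of the 12 stably bound eIF3 subunit genes as log2(FPKM + 1) minus the median of the 12 in the same library, for mRNA (left) and RPF (right), with 1 point for each library and grey shading for 2-fold on either side of the median. Eif3a, Eif3b and Eif3c lie lower in mRNA than in RPF, and Eif3m lies above the median in mRNA and below it in RPF.

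The genes of a, b and c, the largest proteins of the complex, were the 3 lowest in mRNA. Eif3a stood at 42.0 and 33.4 FPKM in mRNA and at 130 and 109 FPKM in RPF, Eif3b had 27.3 and 26.2 FPKM against 112 and 94.1 FPKM, and Eif3c had 62.0 and 60.01 FPKM against 238 and 218 FPKM. In mRNA they stood at 0.26 and 0.20, 0.17 and 0.15, and 0.39 and 0.35 of the median of the complex. In RPF they stood at 0.51 and 0.36, 0.44 and 0.31, and 0.94 and 0.72 of it. Levels fell with coding length among the 12 subunits in both assays, with a Spearman correlation across genes of -0.69 in mRNA and -0.79 in RPF, and over 7429 tested genes with a length it was -0.44 and -0.45. The part of length in the spread of the subunits was not tested. The mRNA and RPF levels of the 12 subunits had a Pearson correlation of 0.86 and a Spearman correlation of 0.68, and over all tested genes the Spearman correlation was 0.81. These points share their libraries.

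Eif3m, a PCI-domain subunit in the core of eIF3, was the 1 subunit called between assays. Eif3m (chr2:104839813-104857237, minus strand) had mRNA values of 213 and 265 FPKM with RPF values of 203 and 164 FPKM, from 99.9 and 73.3 footprints. It was the only stably bound subunit whose RPF FPKM was below its mRNA FPKM as deposited in both replicates, and the centred log2 difference was -1.88 ± 0.27 (SE, limma adjusted p = 0.0345). Of its windows, 51.0% occurred at more than 1 place, and its coding sequence overlaps Ccdc73 on the other strand. Their part in the difference was not tested. Eif3e reached 268 and 280 FPKM in RNA-seq against 408 and 320 FPKM in Ribo-seq. Its difference of -1.10 ± 0.25 missed the threshold (adjusted p = 0.0643) and changed sign without centring. The other 10 subunits had differences from -0.93 for Eif3i to 0.40 for Eif3b, and none was called. Eif3j2, of the loosely bound subunit j, had an mRNA level of 39.4 and 50.2 FPKM, an RPF level of 391 and 308 FPKM and a difference of 1.43 ± 0.28 (adjusted p = 0.0511). A near-identical gene, Eif3j1, is listed in RNA-seq alone. Reads of the copies were therefore not counted over the same entries in both assays, and the difference is uncertain.

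Among the helicases, Eif4a1 was separated from its paralogue Eif4a2 by RPF more than by mRNA (see the plot of paralogous genes). Eif4a1 (chr11:69480438-69485925, minus strand) stood at 255 and 272 FPKM in mRNA and at 2201 and 2439 FPKM in RPF, from 1197 and 1205 footprints. The centred log2 difference was 1.63 ± 0.25 (SE, limma adjusted p = 0.0374). Eif4a2, the other cytoplasmic eIF4A, had mRNA values of 174 and 169 FPKM with RPF values of 377 and 400 FPKM, with a difference of -0.33. Eif4a1 made up 59.4% and 61.7% of the summed mRNA of the pair and 85.4% and 85.9% of the summed RPF. The coding sequences of the pair shared 0 windows of 28 bases, although 91.5% of the windows of Eif4a1 and 37.5% of those of Eif4a2 occurred at more than 1 place in the genome. How the deposited values weighted such reads is not given in the sources used here, and their part in the difference was not tested. Eif4a3, the relative that marks exon junctions, reached 123 and 125 FPKM in RNA-seq against 178 and 172 FPKM in Ribo-seq, and its difference of -1.01 missed the threshold (adjusted p = 0.0657).

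Both partners that stimulate eIF4A lay at the upper end of the differences. Eif4h (chr5:135095747-135115218, minus strand) stood at 64.2 and 66.2 FPKM in mRNA and at 595 and 586 FPKM in RPF, from 173 and 155 footprints. The replicates lay close together in both assays, and the difference was 1.66 ± 0.24 (SE, limma adjusted p = 0.0343). Of its windows, 0.7% occurred at more than 1 place. Eif4b had mRNA values of 37.4 and 29.3 FPKM with RPF values of 271 and 230 FPKM, and its difference of 1.37 ± 0.27 fell just short of the threshold (adjusted p = 0.052). Per plain coding length the difference of Eif4b was 1.46 and was called.

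**Figure D4:**
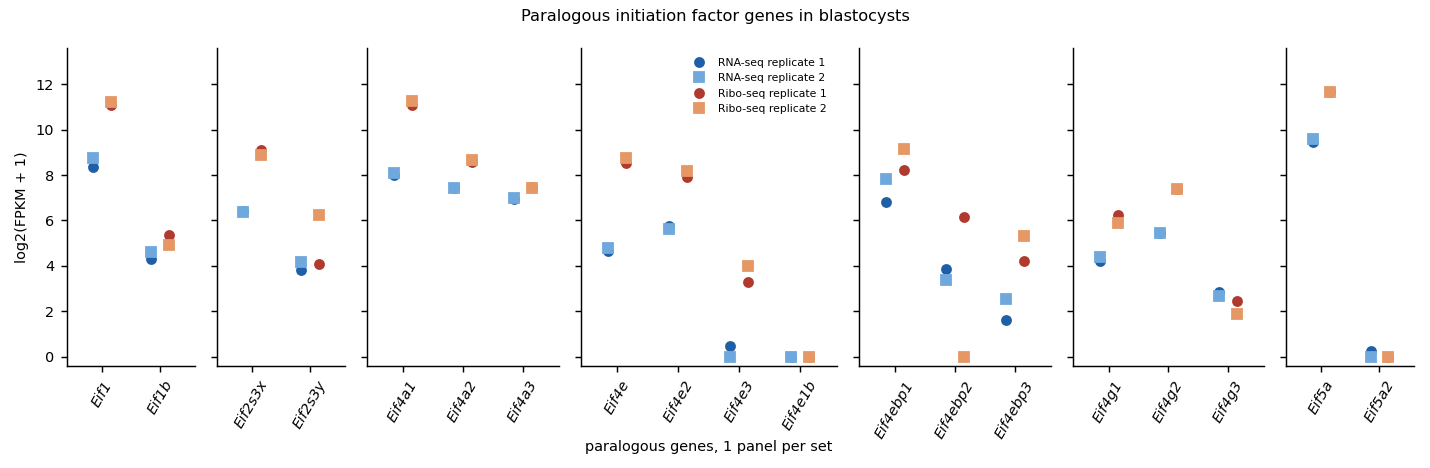
Levels of paralogous initiation factor genes as log2(FPKM + 1), with 1 panel for each set of paralogues and 1 point for each library (blue for RNA-seq, red and orange for Ribo-seq). Eif4a1 and Eif4a2 lie close in mRNA and apart in RPF, Eif4e lies below Eif4e2 in mRNA and above it in RPF, and Eif4g3 is lower than Eif4g1 in all 4 libraries.

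The cap-binding protein gene Eif4e was below its relative Eif4e2 in mRNA and above it in RPF. Eif4e (chr3:138189155-138220563, plus strand) reached 23.96 and 26.7 FPKM in RNA-seq against 370 and 430 FPKM in Ribo-seq, from 89.4 and 94.4 footprints. The centred log2 difference was 2.43 ± 0.26 (SE, limma adjusted p = 0.025) and was 2.15 per plain coding length. Eif4e2, which encodes the cap-binding repressor 4EHP, stood at 52.8 and 47.8 FPKM in mRNA and at 240 and 286 FPKM in RPF, with a difference of 0.86 that was not called. Eif4e made up 31.1% and 35.8% of the summed mRNA of the 4 eIF4E genes and 59.7% and 58.9% of the summed RPF. The order of the 2 genes differed between the assays in both replicates. Of the windows of Eif4e, 80.1% occurred at more than 1 place, against 3.3% for Eif4e2, and the 2 coding sequences shared 0 windows. The part of those windows in the difference was not tested. Eif4e3 had 0.40 and 0 FPKM of mRNA and 8.89 and 14.7 FPKM of RPF, from 2.01 and 3.01 footprints, which is near the floor. Eif4e1b, the oocyte form of eIF4E, was at 0 in all 4 libraries, which allows up to 10.5 and 11.6 FPKM in RPF.

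Among the eIF4E-binding proteins, which keep eIF4E from eIF4G unless mTORC1 phosphorylates them, Eif4ebp1 prevailed. Its mRNA level was 113 and 227 FPKM and its RPF level was 297 and 560 FPKM, so the replicates of each assay were about 1 apart on the log2 scale. It made up 88.0% and 94.1% of the summed mRNA of Eif4ebp1, Eif4ebp2 and Eif4ebp3 and 77.2% and 93.5% of the summed RPF. Eif4ebp2 had mRNA values of 13.4 and 9.45 FPKM with RPF values of 70.3 and 0 FPKM, and its 0 footprints in replicate 2 allow up to 37.2 FPKM. Its difference was -2.04 ± 2.15 (limma adjusted p = 0.525) and turned to 0.99 without Ribo-seq replicate 2. Eif4ebp3 had 2.08 and 4.79 FPKM of mRNA and 17.7 and 39.0 FPKM of RPF, from 1.13 and 2.27 footprints, under the floor, and it overlaps Ankhd1. The summed level of the 3 binding protein genes was 5.37 and 9.05 times Eif4e in mRNA and 1.04 and 1.39 times Eif4e in RPF, or 0.672 and 0.892 times per plain coding length. This ratio carries the difference of Eif4e between the assays (2.43), while that of Eif4ebp1 was -0.16. Eif4enif1, which encodes the transporter of eIF4E into the nucleus, had 1.69 and 4.02 FPKM of mRNA and 9.07 and 5.77 FPKM of RPF.

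Of the scaffold genes, Eif4g1 and Eif4g2 stood well above Eif4g3. Eif4g1 reached 17.7 and 19.7 FPKM in RNA-seq against 73.6 and 58.7 FPKM in Ribo-seq. Eif4g2 (chr7:118211499-118226544, minus strand) stood at 43.1 and 42.1 FPKM in mRNA and at 168 and 167 FPKM in RPF, with a difference of 0.45. Eif4g3 (chr4:137548937-137764423, plus strand), the paralogue of Eif4g1, had mRNA values of 6.28 and 5.27 FPKM with RPF values of 4.46 and 2.72 FPKM, from 10.9 and 6.01 footprints. Its RPF was below its mRNA in both replicates as deposited, and the centred log2 difference was -2.09 ± 0.30 (SE, limma adjusted p = 0.0344). Eif4g1 made up 73.8% and 78.9% of the summed mRNA of the pair and 94.3% and 95.6% of the summed RPF. The coding sequences of the pair shared 0 windows, and 1.0% of the windows of Eif4g1 and 0.0% of those of Eif4g3 occurred at more than 1 place.

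The genes that encode the parts of the cap-binding complex eIF4F stood in different ratios in the assays. Eif4a1 and Eif4a2 together were 17.9 and 16.5 times Eif4e in mRNA and 6.97 and 6.60 times in RPF (8.40 and 7.96 times per plain coding length). Eif4g1 and Eif4g3 together were 1.00 and 0.934 times Eif4e in mRNA and 0.211 and 0.143 times in RPF (0.291 and 0.197 times per plain coding length). In each ratio the replicates of the assays did not overlap, and the ratios carry no test. Both ratios have Eif4e as the denominator, and the log2 difference of Eif4e between the assays was 2.43. The ratios therefore repeat that difference in part and are not separate results. Summed Eif4a1 and Eif4a2 stood above Eif4e and above summed Eif4g1 and Eif4g3 in all 4 libraries. Eif4e stood near the sum of Eif4g1 and Eif4g3 in mRNA and above it in RPF. These are gene levels, and protein was not measured in these libraries. Windows at more than 1 place made up 91.5% for Eif4a1, 37.5% for Eif4a2 and 80.1% for Eif4e, against 1.0% for Eif4g1 and 0.0% for Eif4g3. Their part in the ratios was not tested.

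None of the genes of eIF5, eIF5A, eIF5B and eIF6 was called. Eif5 (chr12:112776312-112794270, plus strand), which encodes the factor that makes eIF2 hydrolyse its GTP, reached 56.1 and 81.4 FPKM in RNA-seq against 162 and 129 FPKM in Ribo-seq, with a difference of -0.41. Eif5b, which encodes the GTPase of subunit joining, stood at 10.8 and 8.40 FPKM in mRNA and at 48.5 and 39.0 FPKM in RPF, with a difference of 0.58. Eif5a had a difference of 0.63 ± 0.24 (limma adjusted p = 0.15), which was 0.07 per plain coding length. Its paralogue Eif5a2 had 0 footprints in both Ribo-seq libraries, which allows up to 21.5 and 23.7 FPKM, and at most 0.19 FPKM of mRNA. Eif6, whose product keeps the large subunit from joining too early, had mRNA values of 43.4 and 52.3 FPKM with RPF values of 178 and 177 FPKM, with a difference of 0.38.

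The length of the coding sequence moved with these comparisons. Over the 718 tested genes with a coding sequence under 500 bases, 7 of them members, the median difference was 0.28 in the deposited values and -0.51 per plain coding length. Over the 6671 longer genes, 40 of them members, it was -0.26 and -0.23. Per plain coding length, 5 members were called higher and 4 lower among the 47 with a coding length, beside 490 and 569 of 7389 genes, and the 6 genes called in the deposited values were all called again. The median of the members was -0.17 on that scale.

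Of 30 other genes of the pathway, 2 were higher in RPF, 1 was lower, and the median difference was 0.02, against -0.24 over all tested genes, of which 6.65% were called higher and 5.31% lower. The list held poly(A)-binding proteins, the mTORC1 axis, eIF4E kinases and competitors, helicases, eIF2 phosphatase adaptors, eIF5 mimics and the enzymes that make hypusine, and all 30 were tested. Paip2b, which encodes an inhibitor of the poly(A)-binding protein, reached 17.0 and 19.3 FPKM in RNA-seq against 532 and 577 FPKM in Ribo-seq, a difference of 3.36 ± 0.25 (limma adjusted p = 0.017). Ddx3x, a helicase that aids scanning of structured leaders, had 22.3 and 18.6 FPKM against 192 and 208 FPKM, a difference of 1.73 ± 0.26 (adjusted p = 0.0372). Rptor, which encodes the substrate-binding part of mTORC1, had 4.23 and 4.26 FPKM against 3.68 and 4.33 FPKM, a difference of -1.57 ± 0.25 (adjusted p = 0.04). Neither the hypusine enzymes Dhps and Dohh nor the mTORC1 kinase Mtor was called.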

How the data were processed

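The authors deposited FPKM per gene and library. They trimmed reads with Trim Galore 0.4.2 (RNA-seq) and cutadapt 1.14 (Ribo-seq) and removed rRNA from Ribo-seq with Bowtie2 2.2.2. Reads were then mapped to the mm9 transcriptome with STAR 2.5.3a, with up to 20 places per read. Cufflinks 2.2.1 was run on transcripts (RNA-seq) or coding sequences (Ribo-seq). A symbol listed more than once (345 symbols, 0 members) took its highest value. Members, groups, lists and tests were chosen with earlier results of these data known.

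Levels were log2(FPKM + 1), which understates changes of low genes. Genes with a mean of at least 1 FPKM in both assays (8327) were centred on each library's median and tested with limma 3.58.1 in R 4.3.3. On simulated data for RPF minus mRNA over 8327 genes, 83% of 200 genes changed by 3 on the log2 scale were recovered, with 6.74% of calls false. Those 200 were drawn only from highly expressed genes, above the median of every library. Smaller changes and lower genes were not simulated. Footprints were read from the steps of low values with an effective length for fragments of 200 bases (SD 80), and RPF per plain coding length undoes that length. This last alternative was chosen after seeing the data. Coding sequences, and how often each of their 28-base windows occurs in the genome, came from GENCODE vM1 and NCBIM37. Windows were counted over the whole genome, so their places can differ from those open to reads mapped to the transcriptome. Eif2s3y and Eif3j2 had no coding sequence matched and no footprint count.

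Values in all libraries were given for eIF2 subunits, the highest and lowest members of each group by RPF, paralogues, every called member, and the 5 highest and 5 lowest differences, while of the 30 pathway genes only those called were given in full. Alternatives were the pseudocount, the filter, the normalization, the replicate number as a block, summed duplicates and each library left out. Across the 8327 tested genes, the signed gap between the RNA-seq replicates correlated at 0.01 with that between the Ribo-seq replicates. The replicate numbers were therefore not taken as a pairing.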

Additional observations from a re-analysis of the deposited data

How the results depend on the processing

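With a pseudocount of 0.1, limma called 2 members higher and 1 lower (308 and 154 of all 8327 genes). With a mean of at least 5 FPKM it called 8 and 5 of 44 (620 and 751 of 5083 genes), without a filter 10 and 4 of 52 (1396 and 3096 of 13402), with quantile normalization 4 and 6, and without centring 30 and 0. The paired fit with a replicate block called 0 and 0, and 0 of all 8327 genes, with 16 members and 2594 genes at an unadjusted p under 0.05. The replicate numbers are not known to mark shared embryos, and no call ended by the block is read as a weaker effect. Leaving out 1 library gave 0 to 10 members higher and 0 to 8 lower, and the lone library of an assay was then assumed to vary like the other assay. RPF per plain coding length gave 5 and 4. The median difference of the members was 0.075 without a filter, -0.30 with quantile normalization and 1.34 without centring, where the medians of all tested genes were -0.40, -0.06 and 1.26, and it ran from -0.17 to -0.03 with 1 library left out. Eif3e turned to 0.40 without centring, and Eif4ebp2 ran from -5.08 without Ribo-seq replicate 1 to 0.99 without Ribo-seq replicate 2. Eif3m and Eif4g3 were no longer called without centring, at -0.38 and -0.58. The SD of the eIF3 subunits in RPF moved to 0.75 per plain coding length, from 0.85, and ran from 0.80 to 0.91 with 1 replicate left out, against 1.19 to 1.28 in mRNA. The causes of these changes were not tested. Ribo-seq depth limits Eif1b, Eif4e3, Eif4e1b, Eif4ebp2, Eif4ebp3, Eif5a2 and Eif2ak2 to about 6 footprints or fewer per library.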
